A study of Mus musculus with 14 samples.

Results

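The enzymes of heme synthesis described here are the products of 8 mouse genes, Alas1, Alas2, Alad, Uros, Urod, Cpox, Ppox and Fech, chosen by name out of the 55487 genes in the count tables. Their RNA was read in 14 RNA sequencing libraries from 3 cell populations. LSK (Lin-Sca1+c-kit+) cells, which hold the stem cells of the bone marrow, and LK (Lin-c-kit+) cells, which hold its myeloid and erythroid progenitors, were sorted from Mx1Cre; Jak2VF/+ mice. All LSK and LK groups thus carried a heterozygous Jak2V617F allele, the kinase mutation of myeloproliferative neoplasms, switched on by the interferon-inducible Mx1Cre after pI-pC injection, in marrow transplanted into lethally irradiated C57BL/6 recipients. These mice received PBS (3 libraries for each population) or IL-1β (2 libraries for each population) at 0.5 μg a dose, 3 doses per week for 16 weeks. The mesenchymal stromal cells (MSC) came from wild-type C57BL/6 marrow, were cultured for 21 days and received PBS (2 libraries) or 5 ng/ml IL-1β (2 libraries) for 72 h, so they carried neither Jak2V617F nor Mx1Cre. The labels gave no age and did not say whether replicates came from separate animals or cultures, so the p-values measure the spread between these libraries. The comparisons asked how IL-1β altered gene expression within each population and how the progenitor fractions differed.

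The libraries held 4393233 to 30871055 counted read pairs, and in LSK and in LK cells both IL-1β libraries had fewer counts than all 3 PBS libraries. The sort markers followed the labels. Ly6a, which encodes Sca1, was at 13.7 to 38.0 CPM (counts per 1000000 counted read pairs) in LSK libraries and at 0.251 to 1.83 CPM in LK libraries, and Kit was at 268 to 532 CPM in both. The MSC libraries carried collagen RNA, but their 12 macrophage markers summed to 16247 to 43296 CPM against 1855 to 5389 CPM for 13 mesenchymal markers. With PBS the collagen gene Col1a2 was at 1013 CPM and Cxcl12, a stromal chemokine, at 223 CPM on average, while Lepr, a marker of marrow stroma, had 0 counts in both PBS libraries and 5 and 6 counts with IL-1β. MSC below is therefore the name of a culture that also held macrophage transcripts.

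Heme is the iron-bearing ring of hemoglobin, cytochromes and peroxidases. It is built in a relay that starts in the mitochondrion, passes through the cytosol and ends in the mitochondrion again. The first and rate-setting step, the joining of glycine and succinyl-CoA, is made by Alas1 in most tissues and by the X-linked Alas2 in erythroid cells. Alas1 is held down by heme itself, whereas Alas2 is an erythroid gene driven by factors such as Gata1. Red cell precursors use most of the heme of the body, and granulocyte precursors need it for myeloperoxidase.

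The start regions of the members differed in their letters. For each of the 4 members with a GATA or NRF1 match, terms explained below, 1 window holding such a match is printed. The set of promoters used here held 10 RefSeq transcription starts for 7 of the 8 members (GRCm38.p6) and none for Fech. Each window holds the 250 bases before a start, written 5′ to 3′ on the strand of the gene. Capitals mark GATA letters (GATA with A or T before it and A or G after it), CACCC letters and the NRF1 motif, searched on both strands. GATA letters can be bound by Gata1, CACCC letters by Klf1 and related factors, and the NRF1 motif by a factor of mitochondrial genes. Of 32851 promoters of this length, 26.5% held GATA letters, 52% CACCC letters and 3.74% the NRF1 motif. The window of Alas2 (chrX:150547167-150547416, plus strand) held 1 GATA match 86 bases before the start and 3 CACCC matches 40, 35 and 30 bases before it. That of Cpox (chr16:58669958-58670207, plus strand) held 2 overlapping GATA matches at 91 and 86 bases and 4 CACCC matches. The second start of Uros (chr7:133702501-133702750, minus strand), inside the gene, had 2 GATA matches at 205 and 68 bases. The second start of Alas1 (chr9:106247731-106247980, minus strand) had no GATA match, 2 NRF1 matches at 224 and 195 bases and 1 CACCC match between them. The first starts differed from these, since that of Alas1 held no NRF1 match and 1 CACCC match, and that of Uros held no GATA match and 1 NRF1 match at 47 bases. Of the starts of Alad, the first held none of these letters and the second 1 CACCC match. The single windows of Ppox and Urod held none of these letters. A match is a description of letters and not evidence of binding.
Alas2: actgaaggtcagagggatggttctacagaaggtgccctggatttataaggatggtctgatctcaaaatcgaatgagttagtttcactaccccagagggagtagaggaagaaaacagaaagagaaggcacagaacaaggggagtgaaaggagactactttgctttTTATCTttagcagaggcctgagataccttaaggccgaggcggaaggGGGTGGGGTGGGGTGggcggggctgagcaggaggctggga
Cpox: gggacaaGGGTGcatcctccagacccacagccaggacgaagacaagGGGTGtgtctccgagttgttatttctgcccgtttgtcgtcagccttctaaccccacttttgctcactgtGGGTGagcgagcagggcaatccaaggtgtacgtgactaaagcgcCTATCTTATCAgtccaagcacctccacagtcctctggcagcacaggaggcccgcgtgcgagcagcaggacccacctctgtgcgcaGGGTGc
Uros, second start: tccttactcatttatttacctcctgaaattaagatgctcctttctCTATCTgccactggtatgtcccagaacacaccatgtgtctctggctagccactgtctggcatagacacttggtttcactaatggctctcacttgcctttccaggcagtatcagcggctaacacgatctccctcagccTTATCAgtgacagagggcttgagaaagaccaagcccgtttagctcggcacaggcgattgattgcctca
Alas1, second start: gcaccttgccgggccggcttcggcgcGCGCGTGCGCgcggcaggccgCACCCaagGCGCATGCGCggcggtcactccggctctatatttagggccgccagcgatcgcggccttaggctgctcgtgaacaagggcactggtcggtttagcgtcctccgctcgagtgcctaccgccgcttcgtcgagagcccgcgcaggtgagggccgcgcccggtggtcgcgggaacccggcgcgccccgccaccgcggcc

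In PBS-treated LK cells Alad, Cpox and Urod lay above Alas1, while Ppox, Uros and Fech had lower means and Alas2 came last. Levels are given as RPKM, read pairs per 1000000 and per kilobase of exons. The annotated exonic lengths ran from 1871 bases for Alad to 13838 for Fech. The order of genes and the ratios between genes depend on these lengths, which can exceed those of the transcripts in use. In CPM, without length, the mean of Fech (138) lay above those of Ppox (83.3) and Uros (49.8) in these libraries. On this scale Alad, the cytosolic enzyme that makes porphobilinogen, led with 138, 119 and 94.7 RPKM in PBS replicates 1, 2 and 3. Cpox and Urod, whose ranges overlapped, followed at 74.3 ± 6.89 and 68.0 ± 9.71 RPKM (SD, n = 3 each). Lower still were Alas1 (20.2, 25.7 and 35.6 RPKM), Ppox (20.3, 23.1 and 11.9 RPKM), Uros (18.4, 15.7 and 7.64 RPKM) and Fech (11.1, 10.1 and 8.79 RPKM), each of which overlapped its neighbour in this order. Alas2 came last and apart, at 2.20, 1.32 and 0.603 RPKM from 68, 63 and 21 read pairs. Of the summed level per kilobase of Alas1 and Alas2, Alas2 made up 9.83, 4.86 and 1.67% in these libraries. LK PBS replicate 3 was thus highest for Alas1 and lowest for all other members, and its summed erythroid markers (5263 CPM) were the lowest and its summed neutrophil markers (9403 CPM) the highest of the PBS libraries of LK cells. The part of these marker differences in the members' values was not tested.

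**Figure D1:**
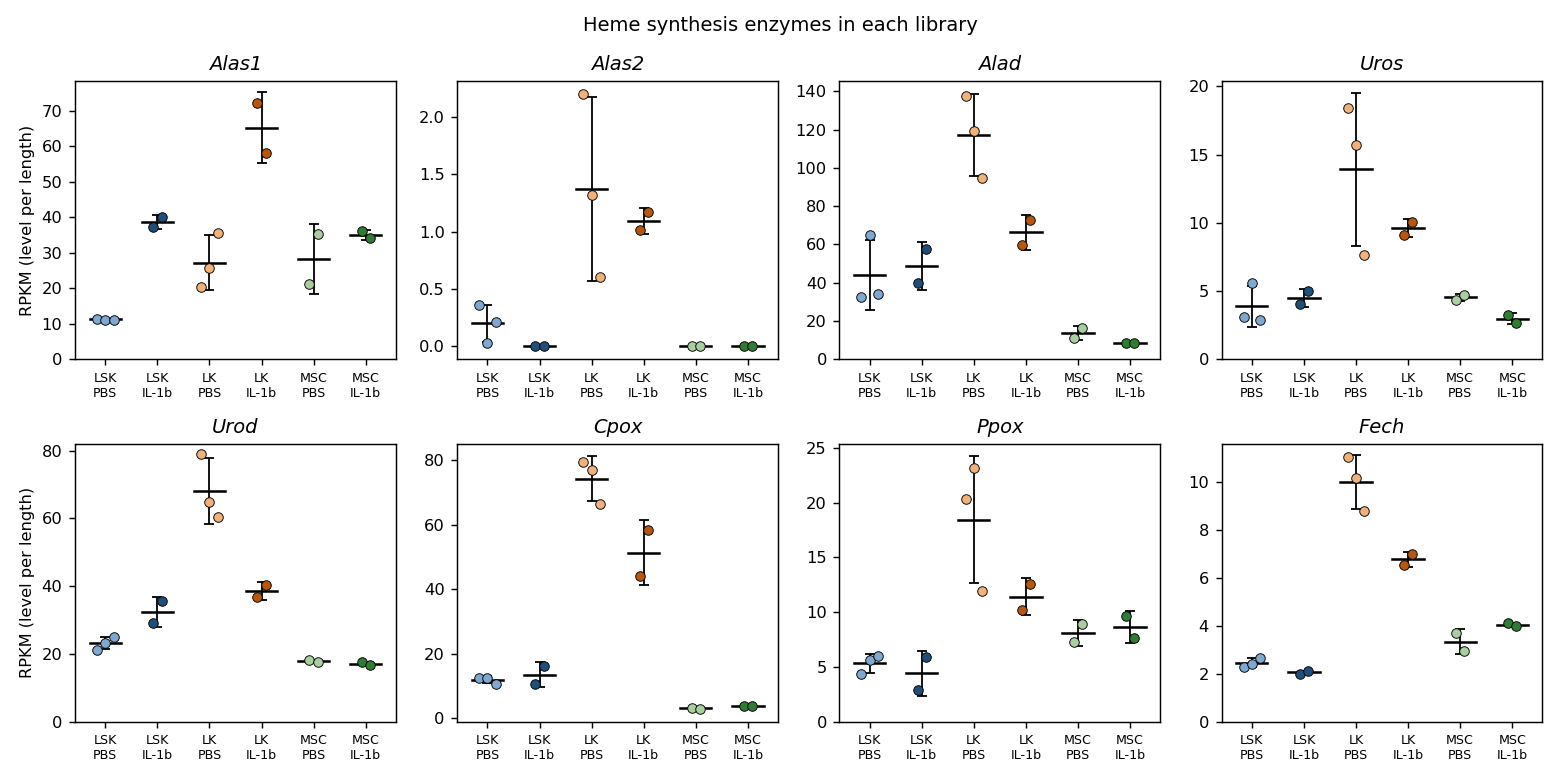
RPKM (level per length, linear axis from 0, a separate scale for each gene) of the 8 enzymes in each of the 14 libraries, by population and treatment. Points are libraries, horizontal bars group means and vertical bars SD (n = 3 in LSK PBS and LK PBS, 2 elsewhere). Alas1 lies higher with IL-1β in LSK and LK cells, while the other genes peak in LK cells with PBS and Alas2 is at 0 in LSK cells with IL-1β and in MSC.

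All 8 enzymes were lower in LSK than in LK cells under PBS. With no overlap between the libraries of the populations for any of the 8 (48.1% of all genes did not overlap), all 8 members were called lower by edgeR's quasi-likelihood test, where 12.4% of the 13839 genes tested were called lower and 19.4% higher. Calls required a log2 fold change beyond 0.5 in either direction together with an adjusted p under 0.05. Cpox, the mitochondrial coproporphyrinogen oxidase, showed a large and precise difference. Its level was 12.5, 12.5 and 10.7 RPKM in LSK cells against 79.5, 76.9 and 66.5 RPKM in LK cells, 5.73-fold lower (log2 -2.52, SE 0.20, adjusted p = 1.06e-05). Fech, which inserts the iron, was at 2.30, 2.43 and 2.65 RPKM in LSK cells and 3.72-fold lower than in LK cells (log2 -1.90, SE 0.15, adjusted p = 1.44e-05). The log2 differences of the other members were -1.74 for Uros, the uroporphyrinogen III synthase, -1.67 for Ppox, the protoporphyrinogen oxidase, -1.43 for Urod, the uroporphyrinogen decarboxylase, -1.31 for Alad and -1.16 for Alas1. Alas1 was nearly even among the PBS libraries of LSK cells, at 11.4, 11.1 and 11.1 RPKM.

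Alas2 was the member with the least RNA in LSK cells. It had 13, 1 and 10 read pairs in LSK PBS replicates 1, 2 and 3, or 0.358, 0.0294 and 0.214 RPKM, and was lower than in LK cells (log2 -2.60, SE 0.83, adjusted p = 0.0334). This call was lost, with adjusted p from 0.0523 to 0.154, when LSK PBS replicate 3, LK PBS replicate 1, LK PBS replicate 2 or either IL-1β library of LK cells was left out of the joint fit. The median log2 difference of the members was -1.70, against 0.09 for all genes tested. The 14 erythroid markers were all called lower in LSK cells, with a median of -3.29, and their sum was 754 to 820 CPM in LSK and 5263 to 6990 CPM in LK libraries. Of 12 neutrophil markers 6 were called lower and 0 higher (median -1.22). All 8 stem and progenitor markers (median 3.65) and 5 of 7 megakaryocyte markers tested (median 1.97) were called higher. The part of these marker differences in the members' values was not tested. In such bulk libraries fewer cells of a type and less RNA per cell cannot be told apart.

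**Figure D2:**
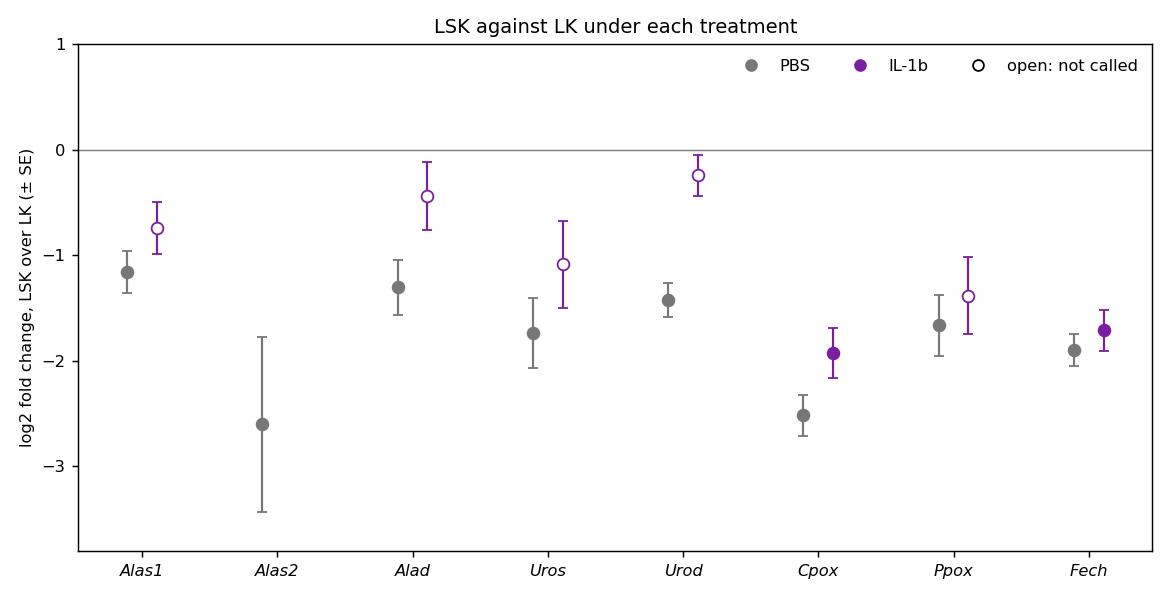
Log2 fold change of LSK over LK cells (± SE, edgeR joint fit of 10 libraries) for the 8 enzymes under PBS (grey) and IL-1β (purple); filled points were called. All points lie below 0, and Alas2 under IL-1β is not drawn because its LSK libraries had 0 counts.

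IL-1β moved the first enzyme of the pathway in LSK cells. Alas1 was at 11.4, 11.1 and 11.1 RPKM with PBS and at 37.3 and 40.0 RPKM with IL-1β. Both IL-1β libraries lay far above the 3 PBS libraries, which differed little among themselves. Alas1 rose 3.45-fold (log2 1.79, SE 0.22, adjusted p = 0.0121) and was the only one of the 7 members tested that was called, beside 0.32% of all 13132 genes called higher and 0.312% called lower. The call was lost without IL-1β replicate 1 (log2 1.84, adjusted p = 0.102) and without IL-1β replicate 2 (log2 1.75, adjusted p = 0.142), fits in which the lone IL-1β library is assumed to vary like the PBS libraries.

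The later enzymes of LSK cells showed no called difference. Urod was at 21.3, 23.3 and 24.9 RPKM with PBS and at 29.2 and 35.5 RPKM with IL-1β. Its groups did not overlap, but the fold change (log2 0.48, SE 0.24) missed the threshold with an adjusted p of 0.315. Fech lay lower without overlap, at 2.01 and 2.10 RPKM with IL-1β, and its log2 difference of -0.26 had an adjusted p of 0.622. In all 3 of the 7 members tested had groups that did not overlap, and 39.7% of all genes did the same. Alad (log2 0.15, SE 0.35), Uros (0.22, SE 0.40), Cpox (0.17, SE 0.26) and Ppox (-0.29, SE 0.38) overlapped between treatments. For Alad and Uros the PBS group was wide, since PBS replicate 2, at 64.9 and 5.61 RPKM, stood well above replicates 1 and 3. Alas2 had 0 read pairs in both IL-1β libraries. A count of 0 allows up to 3 counts, or 0.137 and 0.277 RPKM in these libraries, which reaches the level of the PBS group, so a difference was not detectable at this depth.

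**Figure D3:**
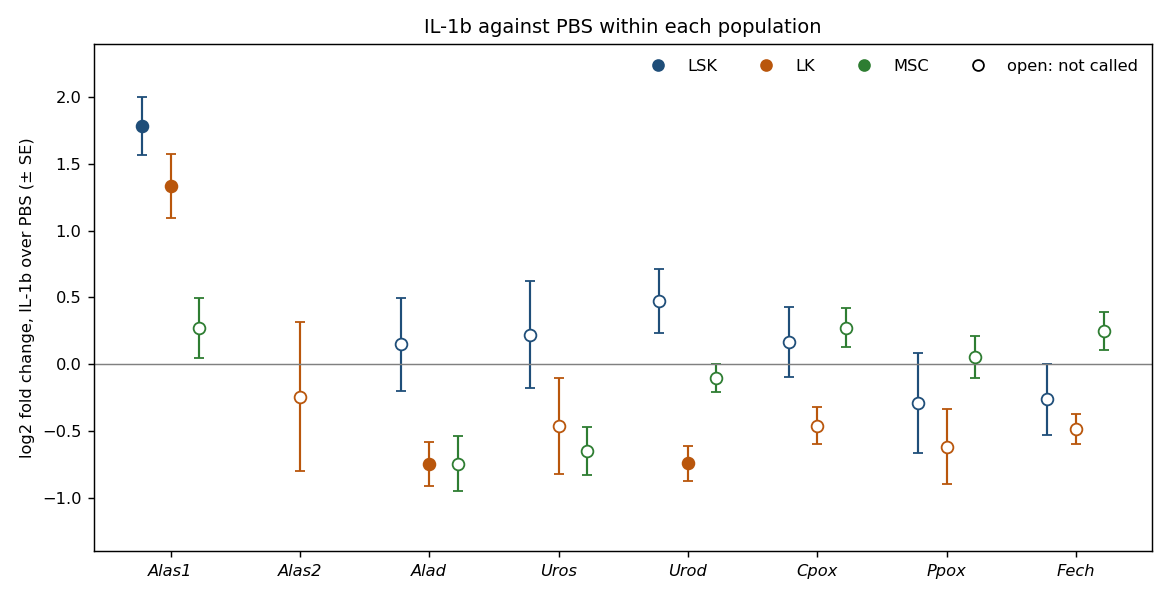
Log2 fold change of IL-1β over PBS (± SE, edgeR within each population) for the 8 enzymes in LSK (blue), LK (orange) and MSC (green); filled points were called and Alas2 was tested in LK cells only. Alas1 is above 0 and called in LSK and LK cells, while Alad and Urod are below 0 and called in LK cells.

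In LK cells the pathway split under IL-1β, with Alas1 called higher and Alad and Urod called lower. Alas1 was at 20.2, 25.7 and 35.6 RPKM with PBS and at 72.3 and 58.2 RPKM with IL-1β, a 2.53-fold rise (log2 1.34, SE 0.24, adjusted p = 0.0212). Urod went from 78.9, 64.9 and 60.3 RPKM to 36.7 and 40.4 RPKM, 1.67-fold lower (log2 -0.74, SE 0.13, adjusted p = 0.0110). Alad went from 138, 119 and 94.7 RPKM to 59.9 and 72.6 RPKM, 1.68-fold lower (log2 -0.75, SE 0.16, adjusted p = 0.0274). In each of these genes all PBS libraries lay on the same side of both IL-1β libraries. Thus 1 of the 8 members was called higher and 2 lower, beside 6.77% of 12835 genes called higher and 2.57% called lower.

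The other later enzymes of LK cells, Fech, Cpox, Ppox and Uros, had lower means with IL-1β and were not called. Fech was at 6.55 and 6.98 RPKM with IL-1β, below every PBS library, and passed the adjusted p (0.0336) but not the fold threshold (log2 -0.49, SE 0.12). Cpox was at 44.2 and 58.4 RPKM, also below every PBS library, with a log2 difference of -0.46 (SE 0.14, adjusted p = 0.0724). Ppox (10.2 and 12.6 RPKM, log2 -0.62, adjusted p = 0.237) and the cytosolic Uros (9.11 and 10.1 RPKM, log2 -0.46, adjusted p = 0.484) overlapped with PBS because of the low values of PBS replicate 3. The groups of 5 of the 8 members did not overlap, and 45.7% of all genes did the same. Alas2 was at 1.02 and 1.18 RPKM from 20 and 19 read pairs, inside the range of PBS (log2 -0.24, SE 0.56, adjusted p = 0.826). The median log2 fold change of the members was -0.47, against -0.03 for all genes tested.

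Single libraries decided several of these calls in LK cells, and the number of all genes called changed in the same fits. Without PBS replicate 3, 7 of the 8 members were called, with Uros at log2 -0.74, Cpox at -0.52, Ppox at -0.84 and Fech at -0.56 added. In that fit 1499 of all genes were called higher and 910 lower, against 869 and 330 with all libraries. No member was called without IL-1β replicate 1 or without IL-1β replicate 2, where the adjusted p of Urod was 0.184 and 0.0797 and that of Alad 0.295 and 0.105. Alas1 lost its call without these libraries (adjusted p = 0.192 and 0.0712) and without PBS replicate 2 (0.0824). Alad also lost it without PBS replicate 1 (0.0742), without PBS replicate 2 (0.0953) and in the joint fit with LSK cells (0.254). The log2 fold changes kept their signs in all of these fits, from 1.16 to 1.59 for Alas1, from -0.88 to -0.62 for Alad and from -0.81 to -0.62 for Urod.

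Markers of other cell types moved with the members in LK cells. Of the 14 erythroid markers 7 were called lower and 0 higher with IL-1β (median log2 -0.89), among them Aqp1 (-1.20), Klf1 (-1.13), Car2 (-1.12), Epor (-0.98) and Gata1 (-0.88), and their sum went from 5263 to 6990 CPM to 2820 to 3361 CPM. Of the 12 neutrophil markers 8 were called higher and 0 lower (median log2 3.00), and their sum went from 4423 to 9403 CPM to 17546 to 20491 CPM. Of 6 megakaryocyte markers tested in LK cells 5 were lower and 1 higher with IL-1β (median log2 -1.60), with 1 called lower. In LSK cells the neutrophil sum went from 2015 to 2835 CPM to 9424 and 11059 CPM, and the erythroid sum was 754 to 820 CPM with PBS against 327 and 795 CPM with IL-1β. All 8 stem and progenitor markers lay lower in LSK cells with no overlap (39.7% of all genes did not overlap), with 2 called (median log2 -1.18). The part of these shifts in the values of the members was not tested.

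Tested against each other, the IL-1β responses of LSK and of LK cells differed by call in none of the 8 members and in 0.0289% of all genes, at an adjusted p under 0.05. At an unadjusted p under 0.05 there were 2, Urod and Alas2, beside 1967 of the 13839 genes tested. Urod came nearest, with a log2 difference of 1.18 between the responses (SE 0.25, adjusted p = 0.129 by edgeR). DESeq2 called Urod alone among the members (log2 1.24, adjusted p = 0.00133), and edgeR called it without LSK PBS replicate 2 (adjusted p = 0.0445), without LSK IL-1β replicate 1 (0.0418) and with no filter on low counts (0.00849). For Alas1 the difference of the responses was 0.41 (SE 0.31, adjusted p = 0.572). The Alas2 value rests on libraries at 0 and is not given.

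Under IL-1β all 8 enzymes still lay lower in LSK than in LK cells with no overlap (56.9% of all genes did not overlap), but 3 were called lower, beside 2.27% of all genes called lower and 2.13% higher. Cpox was at 10.6 and 16.1 RPKM in LSK cells against 44.2 and 58.4 RPKM in LK cells (log2 -1.93, SE 0.24, adjusted p = 0.00152). Fech was 3.27-fold lower in LSK cells (log2 -1.71, SE 0.19, adjusted p = 0.00110). Alas2 was at 2.44 and 2.82 CPM in LK cells, while the limits of 3 counts in LSK cells were 0.328 and 0.665 CPM. The mean of the LK values was 5.30-fold the mean of these limits, which is not a lower bound for single libraries. The call of Alas2 (adjusted p = 0.0432) was lost without LSK PBS replicate 3, LK PBS replicate 1 or 2, or any IL-1β library. The values of the genes that were not called were -1.38 for Ppox, -1.09 for Uros, -0.74 for Alas1, -0.44 for Alad and -0.24 for Urod on the log2 scale.

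Set against each other within a library, Alas1 and the later enzymes changed balance with IL-1β. The RPKM of Alas1 was divided by the geometric mean RPKM of Alad, Uros, Urod, Cpox, Ppox and Fech, a ratio that does not depend on the scaling of libraries. In LSK cells it was 1.42, 1.04 and 1.28 with PBS against 4.58 and 3.56 with IL-1β. In LK cells it was 0.517, 0.714 and 1.37 with PBS against 3.66 and 2.52 with IL-1β. The treatments did not overlap in either population. In LK cells the 6 later enzymes summed to 346, 310 and 250 RPKM with PBS, against 167 and 201 RPKM with IL-1β. In LSK cells they summed to 75.9 to 114 RPKM with PBS, against 88.4 and 122 RPKM with IL-1β. The higher ratio thus went with a lower sum in LK cells and with overlapping sums in LSK cells. Alas2 made up 1.39 and 1.98% of the summed Alas1 and Alas2 level per kilobase in LK cells with IL-1β, so replicate 1 lay below and replicate 2 inside the PBS range of 1.67 to 9.83%.

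**Figure D4:**
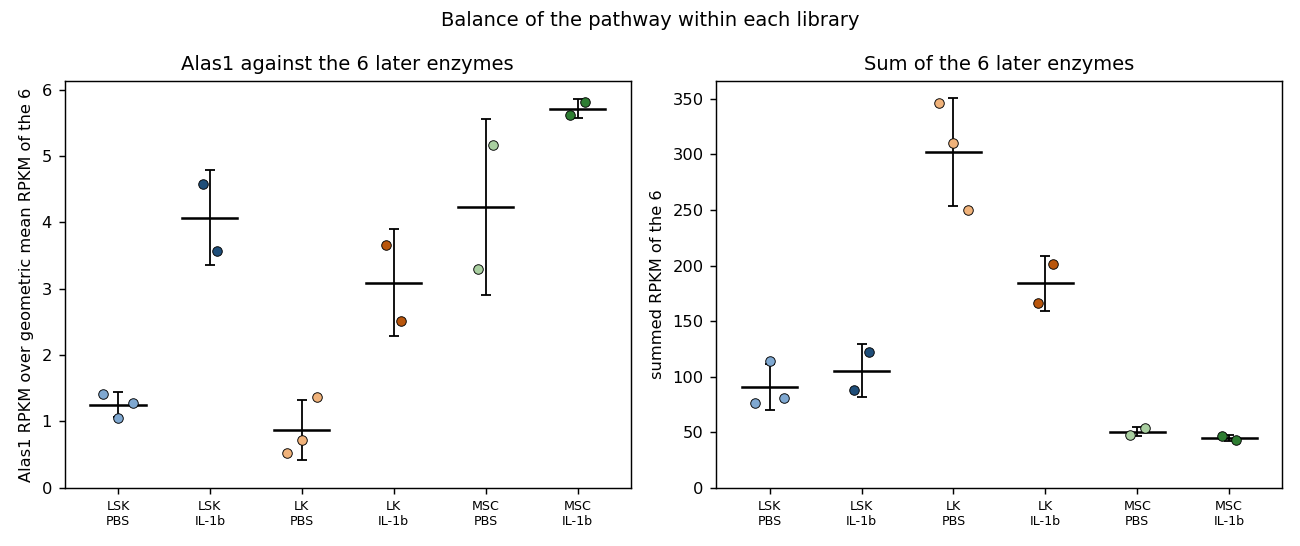
Left, Alas1 RPKM divided by the geometric mean RPKM of the 6 later enzymes in each library; right, their summed RPKM (linear axes from 0, bars as mean and SD, n = 3 in LSK PBS and LK PBS, 2 elsewhere). With IL-1β the ratio is 2.52 or higher in LSK and LK cells, against 1.42 or lower with PBS, and the sum is lower in LK cells.

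The profile of Alas1 over the 10 LSK and LK libraries resembled that of a granulocyte gene more than those of the other heme enzymes. Profiles were compared as centred log2 CPM by their root mean square difference. Nearest to Alas1 among 13831 genes was Mpo, the heme-containing myeloperoxidase, at 0.132, followed by Abcd2 (0.222), Mmp19 (0.242), Gas7 (0.263) and Msrb1 (0.268). The nearest other heme enzyme was Urod, at 0.908. Mpo was at 1631, 1628 and 2021 CPM in LSK PBS replicates 1, 2 and 3. Alas1 was nearly even in those libraries and highest in replicate 1. With IL-1β Mpo was at 6640 and 6593 CPM in LSK replicates 1 and 2, the reverse of the order of Alas1. In LK cells Mpo was at 3125, 3899 and 6597 CPM in PBS replicates 1, 2 and 3, the same order of libraries as for Alas1. With IL-1β it was at 11932 and 10480 CPM there. These genes were ranked on the same libraries as the comparisons, so their likeness includes the difference between groups.

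**Figure D5:**
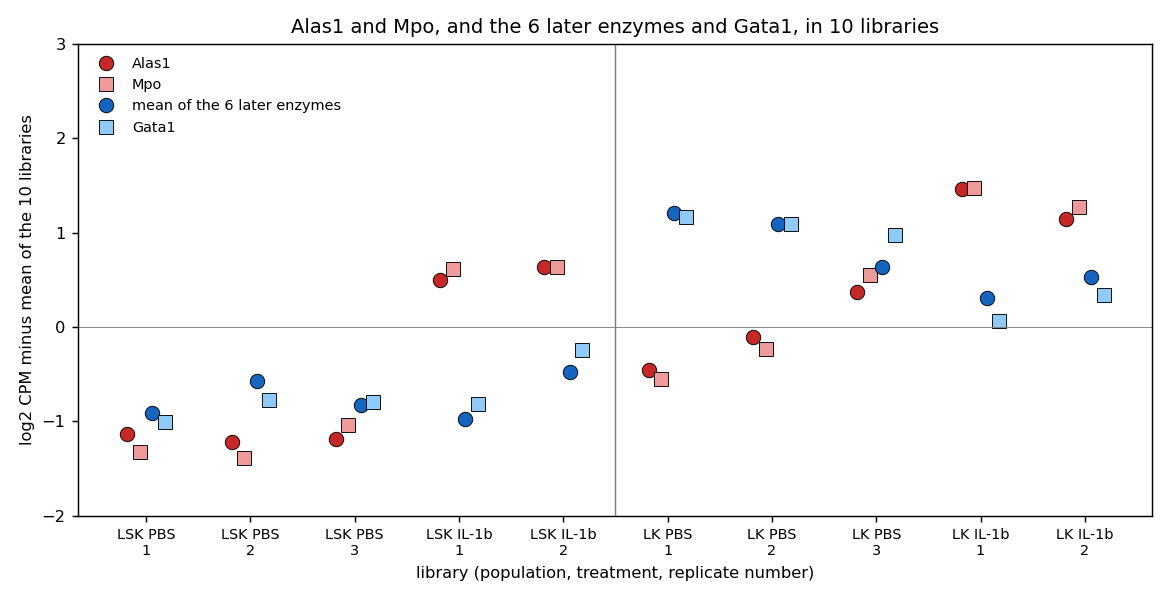
Centred log2 CPM (value minus the mean of the 10 libraries) of Alas1, Mpo, the mean of the 6 later enzymes and the erythroid factor Gata1 in each LSK and LK library. Alas1 and Mpo are lowest in LSK cells with PBS and highest in LK cells with IL-1β, while the 6 later enzymes and Gata1 are highest in LK cells with PBS.

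Each of the 6 later enzymes lay closer to another of them than to Alas1. Alad and Urod differed by 0.279, Ppox and Fech by 0.315, Cpox and Fech by 0.324 and Uros and Alad by 0.327, whereas Alas1 was 0.908 or more away from each of them. Nearest to Alas2 were Cd248 (0.591), Hba-a1, an alpha globin (0.593), Dusp8 (0.603), Ctse (0.605) and AC115631.1 (0.617), and the nearest other heme enzyme was Cpox, at 1.01. Hba-a1 was at 97.9, 54.2 and 18.9 CPM in LK PBS replicates 1, 2 and 3, 26.2 and 31.7 CPM in LK cells with IL-1β, and 0.657 and 1.11 CPM in LSK cells with IL-1β. In LSK PBS replicates 1, 2 and 3 Hba-a1 was at 4.96, 2.83 and 5.30 CPM and Alas2 at 0.860, 0.0707 and 0.515 CPM, so the genes differed in spread and in which replicate was highest. Several of these counts were low, with Cd248 and Dusp8 at 0 in 3 LSK libraries, and Hba-a1 has a near-identical copy whose shared reads the counting could have dropped.

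In MSC the pathway had another order, led by Alas1 and with no Alas2. Alas1 was at 21.3 and 35.3 RPKM in PBS replicates 2 and 3 and at 36.0 and 34.1 RPKM with IL-1β, ahead of Urod at 18.1 and 17.7 RPKM and 17.6 and 16.7 RPKM. Cpox, high in LK cells, was at 3.08 and 2.79 RPKM with PBS and 3.62 and 3.63 RPKM with IL-1β. Alas2 had 0 read pairs in all 4 libraries, which at 3 counts allows up to 0.0516 to 0.246 RPKM. The ratio of Alas1 to the geometric mean of the 6 later enzymes was 3.30 and 5.17 with PBS against 5.61 and 5.81 with IL-1β. Levels in MSC were set beside those of LSK and LK cells with no test, since the cells differ in genotype, culture and treatment.

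IL-1β called none of the 7 members tested in MSC, by edgeR or by DESeq2, beside 7.14% of 13239 genes called higher and 4.31% called lower. At an unadjusted p under 0.05 there were 2, Alad and Uros, beside 3968 of the 13239 genes tested. Alad was at 11.1 and 16.3 RPKM with PBS and 8.57 and 8.35 RPKM with IL-1β (log2 -0.75, SE 0.21, adjusted p = 0.0711). Uros was at 4.35 and 4.69 RPKM with PBS and 3.25 and 2.66 RPKM with IL-1β (log2 -0.65, SE 0.18, adjusted p = 0.0704). Both genes had groups that did not overlap, as had Urod (log2 -0.10), Cpox (0.27) and Fech (0.25), 5 of the 7 members beside 61.2% of all genes. Alas1 had a log2 fold change of 0.27 (SE 0.23, adjusted p = 0.484) and Ppox of 0.05 (SE 0.16). These values depended on the PBS libraries. Without PBS replicate 2 Alad was at log2 -0.96, Uros at -0.66 and Alas1 at -0.02. Without PBS replicate 3 Alas1 was at 0.67. In both fits the lone PBS library is assumed to vary like the IL-1β libraries. The macrophage markers summed to 20706 and 16247 CPM with PBS and 43296 and 42206 CPM with IL-1β, with 8 of 12 called higher. The mesenchymal markers summed to 3503 and 1855 CPM with PBS and 5042 and 5389 CPM with IL-1β, with 2 of 11 tested called higher, and the part of both shifts in the members' values was not tested. Of the erythroid markers 6 to 9 of 14 had 0 counts in MSC, Slc4a1 and the beta globins Hbb-bs and Hbb-bt among them.

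Around the enzymes, 32 genes of heme supply, transport, breakdown and sensing were listed. Under PBS 12 of 30 tested were called lower in LSK than in LK cells and 2 higher (median log2 -0.44). Of all genes tested, 12.4% were called lower and 19.4% higher. The largest differences were those of Abcb6, a porphyrin transporter (-3.09, at 0.279 against 2.72 CPM), Blvrb, a biliverdin reductase (-2.64), Slc25a38, the mitochondrial glycine carrier that feeds the Alas enzymes (-2.17), Tmem14c, needed for porphyrin import (-1.92), and Abcb10 (-1.57). Under IL-1β Abcb10 alone of 30 tested was called lower (-0.98), beside 2.27% of all genes. The values of the others were -2.57 for Abcb6, -1.95 for Blvrb, -0.99 for Tmem14c and -0.75 for Slc25a38, which missed the threshold. In LK cells IL-1β raised Bach1, a repressor that senses heme (0.56, adjusted p = 0.0341), and lowered Blvrb (-0.90) and Slc25a38 (-0.81, adjusted p = 0.0336) among others. Of 30 tested 1 was called higher and 3 lower (median -0.08), beside 6.77% of all genes called higher and 2.57% lower. Slc25a38, Alad and Urod were thus lower together in LK cells, whereas Alas1 was higher. In LSK cells 0 of 29 were called by edgeR (median 0.07), beside 0.32% of all genes called higher and 0.312% lower. At an unadjusted p under 0.05 there were 6, beside 2431 of the 13132 genes tested. All 6 were genes of supply and mitochondrial transport. Of the 15 such genes tested 11 lay higher and 4 lower (median 0.56, against -0.06 for all genes tested). In MSC 2 of 29 tested were called higher and 1 lower (median 0.03), about the share of all genes (7.14% higher and 4.31% lower). Hmox1, the inducible heme oxygenase that breaks heme down, rose from 584 ± 26.4 to 1064 ± 11.4 CPM (SD, n = 2 each, log2 0.83, adjusted p = 0.0117). Slc25a37, the mitochondrial iron importer, rose by 0.65, and Pgrmc1, a heme-binding protein, fell by 0.58 on the log2 scale. Hmox1 was at 0.892 CPM in LSK cells and 0.894 CPM in LK cells with PBS. The part of the differences in cell type markers in the values of these 32 genes was not tested.

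The members lie on separate chromosomes except for Alad and Urod, and 5 share part or all of their span with a gene on the opposite strand. In the annotation of the files (GRCm38) Alas1 spans chr9:106233455-106248654 on the minus strand, Alas2 chrX:150547375-150570638 on the plus strand, Alad chr4:62509169-62519918 and Urod chr4:116989965-116994413 on the minus strand, Uros chr7:133686243-133710072 on the minus strand, Cpox chr16:58670292-58717636 on the plus strand, Ppox chr1:171275990-171281186 on the minus strand and Fech chr18:64452914-64490251 on the minus strand. Read pairs were counted by strand, but whether the kit marks strand is not stated in the sources used here. Ppox shares 791 exonic bases with B4galt3, which had at most 1004 counts. Alas2 lies wholly within the span of Apex2 (23264 bases) and shares 311 exonic bases with it. Apex2 had 40 to 291 counts in the libraries. Both LSK IL-1β libraries had Apex2 counts (75 and 40) and none of Alas2. Cpox shares 204 exonic bases with Gpr15 and Alas1 465 with 4930500F10Rik, which had at most 14 and 6 counts, and the overlap of Uros with Bccip (740 bases) holds no shared exonic base.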

How the data were processed

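RNA of 14 libraries was sequenced by the authors. Per the labels and file headers, reads were trimmed with fastp 0.20.0, aligned with HISAT2 2.0.1 to GRCm38, and read pairs were counted on Ensembl genes with featureCounts 2.0.2 in reverse-stranded mode, whereas the methods name GenomicAlignments. The deposited values are raw counts of read pairs per gene, without normalization. A further IL-1β library named in the header of the MSC table was not analysed here.

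Symbols were matched for 55141 of 55487 genes. The quasi-likelihood test of edgeR 4.0.16 under R 4.3.3 (TMM scaling, filterByExpr, estimateDisp, robust glmQLFit, glmQLFTest) was run on the counts within each population and, for LSK against LK cells and the difference of their responses, in a joint fit of 10 libraries. P-values were adjusted by Benjamini-Hochberg over all genes tested, and genes past an adjusted p of 0.05 and a log2 fold change of 0.5 in size were called, with the p alone for the difference of the responses. The SE is the log2 fold change divided by the square root of F. RPKM used TMM-scaled libraries and the exonic lengths in the files. The limit for a count of 0 was 3 counts and, like all counts here, covers counting error only. Alternatives were DESeq2 1.42.0, its size factors, no filter on low counts, a replicate block, the joint fit, and each library left out in turn. The tests were checked on simulated data. The members and lists were chosen with earlier results of these data known. Text names all members, the 5 largest called genes of each list, the 5 genes nearest to Alas1 and Alas2, overlapping genes, Kit and Ly6a. Genes named for their levels in MSC (Lepr, Col1a2, Cxcl12, Slc4a1, Hbb-bs and Hbb-bt) and the levels of Hmox1 in LSK and LK cells were added after their values were seen. Some genes of the lists enter the counts but are not reported here by name. Promoter windows came from RefSeq (GRCm38.p6).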

Additional observations from a re-analysis of the deposited data

Results flagged for a closer look

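For 3 enzymes all IL-1β libraries of 1 population lay above its PBS libraries and all those of another population lay below. Groups without overlap were common, at 39.7% of all genes in LSK cells, 45.7% in LK cells and 61.2% in MSC. The share of all genes with opposite directions in this sense was not counted. Urod had a log2 fold change of 0.48 in LSK cells, -0.74 in LK cells and -0.10 in MSC. The difference between LSK and LK cells was tested and missed the threshold (adjusted p = 0.129, edgeR), and the difference between LSK cells and MSC was not tested. Cpox was at -0.46 in LK cells and 0.27 in MSC. Fech was at -0.26 in LSK cells, -0.49 in LK cells and 0.25 in MSC. The differences of Cpox and Fech between these populations were not tested, and the MSC differed from the sorted cells in genotype, culture, dose and time. Of these values only the fall of Urod in LK cells was called.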

How the results depend on the processing

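DESeq2's size factors changed the call of no member in any comparison. DESeq2 called 891 genes in LSK cells, where edgeR called 83, 1337 genes between LSK and LK cells under IL-1β with 5 members, and 334 genes for the difference of the responses with 1 member. With no filter on low counts 869 genes were called in LSK cells, 1844 in LK cells with 5 members, 2354 in MSC with 1 member, 1410 between LSK and LK cells under IL-1β with 6 members, and 398 for the difference of the responses with 1 member. The joint fit called 1228 genes for IL-1β in LSK cells and 489 in LK cells. The causes were not tested.

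Same-numbered libraries did not deviate together throughout. The correlation of their deviations over 15393 genes was 0.19, 0.115 and 0.446 for the PBS libraries of LSK and LK cells and 0.0838 for both IL-1β libraries, and LSK PBS replicate 2 correlated more with LK PBS replicate 1 (0.152) than with its own number. With the replicate block 702 genes were called in LSK cells, 2331 in LK cells with 7 members, and 24 for the difference of the responses. In the LSK and LK fits PBS replicate 3 has no partner under the block and adds nothing to the contrast. Under the block 8 members were called between LSK and LK cells with PBS and 4 with IL-1β, where Ppox was added (log2 -1.44, adjusted p = 0.0187). No paired analysis was possible for MSC because the groups share fewer than 2 numbers.

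With each library left out in turn, 3 to 480 genes and 0 to 1 members were called in LSK cells, 66 to 2409 genes and 0 to 7 members in LK cells, and 38 to 3819 genes and 0 to 2 members in MSC. Between LSK and LK cells 2741 to 4607 genes and 7 to 8 members were called under PBS and 89 to 1867 genes and 2 to 4 members under IL-1β. For the difference of the responses the range was 0 to 336 genes and 0 to 1 members. Members that were not called changed sign in 9 of these fits. In LSK cells Alad ranged from -0.12 to 0.56, Cpox from -0.15 to 0.44 and Ppox from -0.85 to 0.14 on the log2 scale. Alas2 ranged from -0.58 to 0.25 in LK cells, Alas1 from -0.020 to 0.67 and Ppox from -0.084 to 0.22 in MSC, and the difference of the responses of Ppox from -0.29 to 0.77. No member changed sign under another setting. Depth limits Alas2, which had at most 68 read pairs in any library.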
